A study of Mus musculus with 6 samples.

Results

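The 2′-5′ oligoadenylate synthetase (OAS) genes were followed in mouse embryonic fibroblasts after knockdown of *Yme1l*. Members were the loci of the count table whose gene name is *Oas1a*, *Oas1b*, *Oas1c*, *Oas1g*, *Oas2*, *Oas3*, *Oasl1* or *Oasl2*, and 8 of 51499 loci met this rule, each with a single gene name.

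RNA-Seq libraries were made from WT MEFs 72 h after transfection with a scrambled siRNA (Scr, 3 cultures) or with Yme1l siRNA (3 cultures), and no other treatment is given. YME1L is a protease of the mitochondrial inner membrane, and the comparison asks which transcripts change when it is depleted. The labels call the cells 3T3 immortalized fibroblasts, whereas the methods describe immortalization with SV40 large T antigen and a WT clone that carries loxP-flanked *Yme1l* alleles, so the results come from 1 cell line. Whether the knockdown used a single siRNA or a pool was not examined here.

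OAS proteins are sensors of double-stranded RNA. Once bound to it, the active members join ATP into short 2′-5′ linked oligoadenylates (2-5A), a second messenger that leads to the cleavage of single-stranded RNA of virus and host and so slows translation. Their genes are interferon-stimulated genes (ISGs), kept low in resting fibroblasts and raised when type I interferon signals through its receptor.

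The libraries held 45205207, 37260605 and 41929579 counts for Scr replicates 1, 2 and 3 and 43630145, 42161756 and 41342446 for Yme1l siRNA replicates 1, 2 and 3. Levels are given as CPM, counts scaled to a common library size with TMM factors. *Yme1l1*, which encodes YME1L, lies at chr2:23156369-23199260 of GRCm38 and gave 170, 171 and 171 CPM with Scr. After Yme1l siRNA it stood at 31.6, 23.4 and 45 CPM. All 3 knockdown libraries were thus far below the Scr libraries, and replicate 3 kept the most *Yme1l1* RNA. The log2 fold change was -2.36 (standard error 0.20, edgeR quasi-likelihood test, Benjamini-Hochberg adjusted p = 3.87e-05).

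All 8 OAS members had at least 25 counts in every library, so none passed the filter on low counts through 1 group alone. After Yme1l siRNA 8 of the 8 were higher at an adjusted p under 0.05, where 4123 of all 14499 loci tested were higher (28.4%) and 4288 were lower (29.6%). Of the members, 7 rose at least 2-fold, against 8.18% of the loci tested, and in 8 the lowest knockdown library lay above the highest Scr library, against 31.9% of the loci tested. The median log2 fold change of the 8 was 4.0, and that of all loci tested was 0.01. Ordered from the largest increase down, *Oas1g* ranked 14, *Oas2* 15, *Oas3* 32, *Oasl1* 33, *Oas1a* 57, *Oasl2* 103, *Oas1b* 261 and *Oas1c* 2211 among the 14499. In bulk RNA, more cells that express a gene and more RNA per cell cannot be told apart. The cultures are described as independent, and the p-values measure the spread between them.

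**Figure D1:**
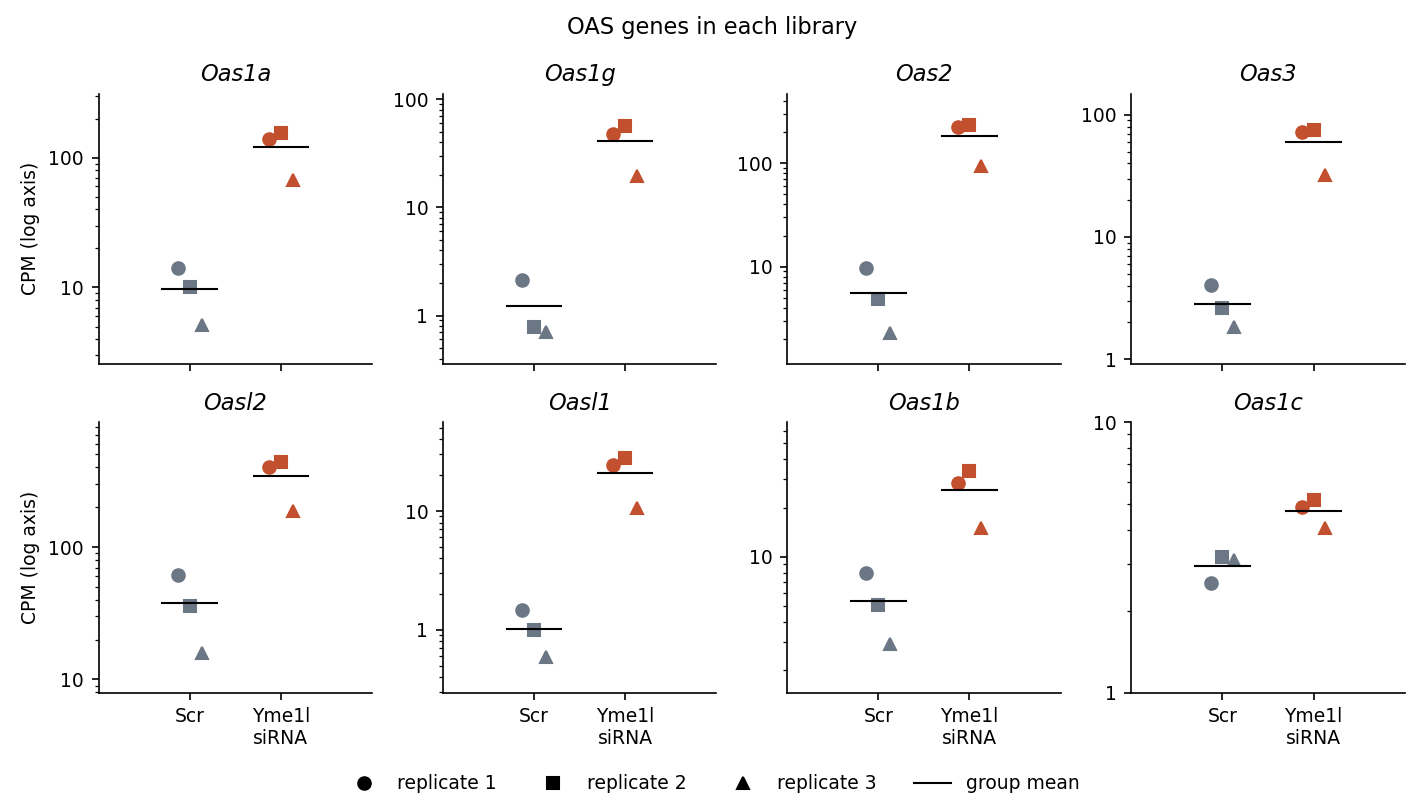
Level of each OAS gene in the 6 libraries, in CPM on a log axis that differs between panels; each point is 1 library, its shape the replicate number, and the line is the group mean. In every panel the 3 Yme1l siRNA libraries lie above the 3 Scr libraries, and *Oas1c* has the narrowest gap, 2.93 against 4.69 CPM.

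The members lie in 2 clusters on chromosome 5 of GRCm38. *Oasl2* and *Oasl1* occupy 41.0 kb at chr5:114896936-114937915, and the 6 other members occupy 177 kb at chr5:120730333-120907521, with 5790 kb between the clusters. In the second cluster *Oas1b* is the only member read from the plus strand, and the mouse genes *Oas1d*, *Oas1e*, *Oas1f* and *Oas1h*, which are not members, lie among or beside the members.

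Since the members moved together, their start sites were searched for the core of the interferon-stimulated response element, GAAA, any 2 bases, and GAAA again, or on the other strand TTTC, any 2 bases, and TTTC, the letters that IRF9 and other IRF proteins contact. RefSeq promoter sequences of GRCm38.p6, from 250 bases before to 50 bases after the start, matched 6 of the 8 members (*Oas1a*, *Oas1c*, *Oas1g*, *Oas3*, *Oasl1* and *Oasl2*); *Oas1b* and *Oas2* were not matched. This core was found in 4 of the 6 windows, against 1131 of the 32851 windows in the table (3.44%) and 3.05% of the 12555 windows of loci tested. It was also found in 7 of the 28 windows of the pathway genes described further on. Those windows do not stand for 28 genes. *Adar*, *Akap7*, *Irf9* and *Irf1* have several, and *Dhx58*, *Zbp1*, *Usp18*, *Oas1d* and *Oas1e* have none and were not searched. The 4 windows are printed 5′ to 3′ in the direction of the gene, with the matches in capitals, because they show where these letters lie beside the starts of the members. They lie at chr5:120907476-120907775 (*Oas1a*), chr5:120887564-120887863 (*Oas1g*), chr5:120777610-120777909 (*Oas3*) and chr5:120812465-120812764 (*Oas1c*), all on the minus strand.
Oas1a: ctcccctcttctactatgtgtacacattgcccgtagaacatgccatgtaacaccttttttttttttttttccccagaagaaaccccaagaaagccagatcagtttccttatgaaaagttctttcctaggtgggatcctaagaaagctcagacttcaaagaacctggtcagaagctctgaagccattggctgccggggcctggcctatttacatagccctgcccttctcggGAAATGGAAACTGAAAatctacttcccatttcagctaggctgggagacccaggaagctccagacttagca
Oas1g: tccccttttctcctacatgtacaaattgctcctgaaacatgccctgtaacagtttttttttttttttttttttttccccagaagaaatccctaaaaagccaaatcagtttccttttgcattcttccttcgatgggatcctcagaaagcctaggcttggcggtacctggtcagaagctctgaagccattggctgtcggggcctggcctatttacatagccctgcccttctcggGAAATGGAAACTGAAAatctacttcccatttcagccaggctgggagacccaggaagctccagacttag
Oas3: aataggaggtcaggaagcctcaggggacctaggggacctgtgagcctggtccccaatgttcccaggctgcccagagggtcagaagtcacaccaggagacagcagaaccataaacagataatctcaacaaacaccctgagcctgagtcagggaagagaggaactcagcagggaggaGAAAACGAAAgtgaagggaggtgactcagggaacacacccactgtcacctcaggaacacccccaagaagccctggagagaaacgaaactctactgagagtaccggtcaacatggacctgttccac
Oas1c: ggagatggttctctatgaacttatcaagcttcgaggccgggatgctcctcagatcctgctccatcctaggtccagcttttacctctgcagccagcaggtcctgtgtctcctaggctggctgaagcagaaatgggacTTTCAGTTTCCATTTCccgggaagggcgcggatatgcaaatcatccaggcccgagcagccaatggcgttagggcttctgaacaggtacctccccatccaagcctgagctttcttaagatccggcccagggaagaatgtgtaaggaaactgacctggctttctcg

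In *Oas1a* a pair of overlapping matches begins 20 and 14 bases before the start, and in *Oas1g* 18 and 12 bases before it. These 2 windows were 86.1% identical over 303 aligned positions, whereas no other pair among the 6 windows aligned. *Oas3* has 1 match, 75 bases before the start. The *Oas1c* window has an overlapping pair on the other strand, 114 and 108 bases before the *Oas1c* start. This window also spans the annotated start of *Oas1b*, which is read the other way, and in the direction of *Oas1b* the same matches begin 22 and 16 bases before that start and have the letters seen in *Oas1a* and *Oas1g*. The pair can therefore not be assigned to *Oas1c* alone. The windows of *Oasl1* and *Oasl2* did not hold these letters. A match is a description of letters and not a measured binding site.

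*Oas1a* (XLOC_034265, chr5:120896256-120907521) encodes one of the active short synthetases of the mouse. It was measured at 14.0, 10.1 and 5.14 CPM in Scr replicates 1, 2 and 3, and at 140, 156 and 67.7 CPM in Yme1l siRNA replicates 1, 2 and 3. The groups did not overlap, with Scr replicate 1 highest among the controls and Yme1l siRNA replicate 3 lowest among the knockdowns. Its mean rose from 9.72 ± 4.41 to 121 ± 47.0 CPM (SD, n = 3 each), 12.5-fold; on the log2 scale the change was 3.64 (standard error 0.41, edgeR quasi-likelihood, Benjamini-Hochberg adjusted p = 0.000129).

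*Oas1g* (XLOC_034264, chr5:120876142-120887613), the other active short synthetase, gave the largest fold of the family in the main fit, just above *Oas2* (log2 fold change 5.03). This order was not stable. With limma-voom *Oas1g* was at 5.11 and *Oas2* at 5.15, and without Scr replicate 2 they were at 4.83 and 4.93. The Scr libraries of *Oas1g* held 2.15, 0.776 and 0.711 CPM and its knockdown libraries 47.5, 56.7 and 19.4 CPM. Even the lowest knockdown library was 9.01-fold above the highest Scr library, which was again replicate 1. The log2 fold change was 5.06 (33.4-fold, standard error 0.52, edgeR quasi-likelihood, Benjamini-Hochberg adjusted p = 8.21e-05).

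*Oas1a* and *Oas1g* are near-identical copies, and their single values are uncertain because the treatment of reads that match several places is not stated for the counts. Their longest annotated transcripts were 97.5% identical over 1860 bases, and of the distinct 100-base stretches of *Oas1a* transcripts 40.9% also occur in *Oas1g*, with 31.2% the other way. Reads were 100 nucleotides at each end. Counted as 1 locus, a choice made after seeing the data, the pair stood at 16.1, 10.8 and 5.85 CPM in Scr and 188, 213 and 87.1 CPM after Yme1l siRNA. The summed locus gave a log2 fold change of 3.89 (SE 0.43, edgeR quasi-likelihood, Benjamini-Hochberg adjusted p = 0.000119), so the rise of the pair does not rest on how reads were split between them. For *Oas2*, *Oas3*, *Oasl1*, *Oasl2* and *Oas1b* no 100-base stretch occurred in another gene, and for *Oas1c* 4.23% did.

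*Oas2* (XLOC_034259, chr5:120730333-120749853) encodes a larger synthetase with tandem OAS units. Scr replicates 1, 2 and 3 gave 9.65, 4.88 and 2.30 CPM, and Yme1l siRNA replicates 1, 2 and 3 gave 224, 235 and 93.3 CPM. No library of one group reached the range of the other, and the lowest knockdown library was 9.66-fold above the highest Scr library, the widest gap of the family. The mean rose from 5.61 ± 3.73 to 184 ± 78.8 CPM (SD, n = 3 each), and the log2 fold change was 5.03 (32.7-fold, standard error 0.54, edgeR quasi-likelihood, Benjamini-Hochberg adjusted p = 0.000106).

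*Oas3* (XLOC_034260, chr5:120753098-120777661) encodes the longest synthetase, which binds long double-stranded RNA. Its Scr libraries gave 4.04, 2.60 and 1.82 CPM and its knockdown libraries 72.2, 74.8 and 32.1 CPM. The first 2 knockdown libraries were alike and replicate 3 was lower, yet 7.95-fold above the highest Scr library. The log2 fold change was 4.40 (21.1-fold, standard error 0.39, edgeR quasi-likelihood, Benjamini-Hochberg adjusted p = 4.27e-05).

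OAS-like proteins carry ubiquitin-like repeats after the OAS unit. *Oasl2* (XLOC_032623, chr5:114896936-114912234), which in the mouse is still an active synthetase, stood at 62.0, 35.9 and 15.9 CPM in Scr and at 405, 439 and 186 CPM after Yme1l siRNA. It had the most counts of the family in every library, and Scr replicate 1 held 3.89-fold more than Scr replicate 3. On the log2 scale *Oasl2* rose by 3.18 (9.05-fold, standard error 0.49, edgeR quasi-likelihood, Benjamini-Hochberg adjusted p = 0.000728).

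*Oasl1* (XLOC_032624, chr5:114923240-114937915) has no synthetase activity and is known to hold back translation of *Irf7* mRNA. It was low in Scr, at 1.46, 0.998 and 0.593 CPM, and reached 24.4, 28.0 and 10.7 CPM after Yme1l siRNA. The groups were apart by 7.37-fold at their nearest libraries. The log2 fold change was 4.37 (20.6-fold, standard error 0.43, edgeR quasi-likelihood, Benjamini-Hochberg adjusted p = 6.83e-05). An antisense gene, *Gm13822*, shares 38 exonic bases with it and had at most 3 counts in any library; whether counting used the strand is not stated.

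*Oas1b* (XLOC_032711, chr5:120812635-120824163) is the flavivirus resistance gene of the mouse, truncated in many laboratory strains, and the annotation lists it as a polymorphic pseudogene. Scr libraries held 7.99, 5.07 and 2.92 CPM of it, and knockdown libraries 28.7, 33.8 and 15.1 CPM. The nearest libraries of the groups, Scr replicate 1 and Yme1l siRNA replicate 3, were 1.89-fold apart. This is a log2 fold change of 2.28 (4.85-fold, standard error 0.38, edgeR quasi-likelihood, Benjamini-Hochberg adjusted p = 0.00111).

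*Oas1c* (XLOC_034262, chr5:120800194-120812514), a further paralogue of the Oas1 group, changed least. It stood at 2.54, 3.16 and 3.08 CPM in Scr and at 4.85, 5.15 and 4.06 CPM after Yme1l siRNA. Here Scr replicate 1, the highest control for the 7 other members, was the lowest, and the groups were 1.28-fold apart at their nearest. The log2 fold change was 0.68 (1.60-fold, standard error 0.17, edgeR quasi-likelihood, Benjamini-Hochberg adjusted p = 0.00759). The antisense gene *Gm43069* shares 227 exonic bases with *Oas1c* and had at most 5 counts in any library.

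Of the 4 mouse OAS genes outside the members, none passed the filter. *Oas1f* had 0 counts in all 6 libraries and *Oas1h* at most 1. *Oas1d* had 0 counts in each Scr library and 4, 8 and 4 after Yme1l siRNA, at least 1.65-fold higher against a floor of 3 counts per Scr library. *Oas1e* had 4, 2 and 1 counts in Scr and 14, 14 and 6 after Yme1l siRNA, a ratio of 4.54 with a 95% interval of 1.98 to 12.1 that covers counting error only.

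**Figure D2:**
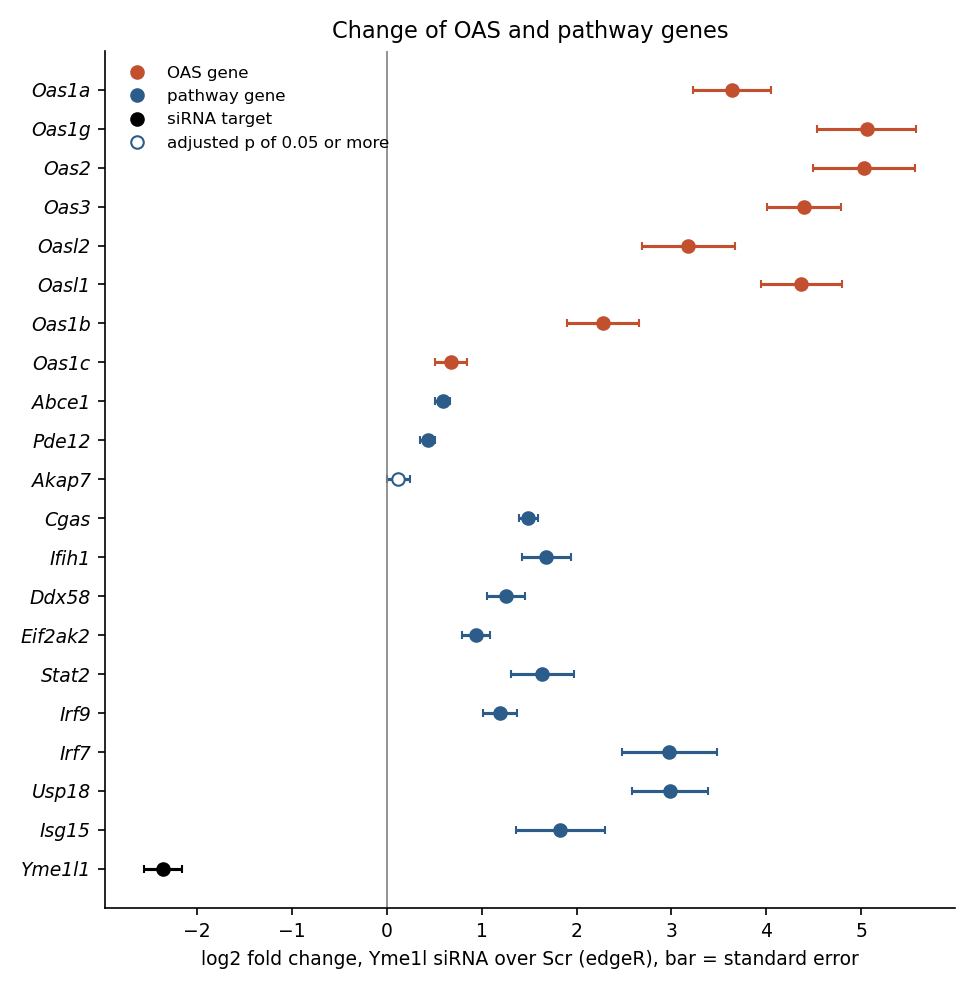
Log2 fold change of Yme1l siRNA over Scr from edgeR for the 8 OAS genes, 12 of the pathway genes and the siRNA target; bars are standard errors and open points have an adjusted p of 0.05 or more. *Oas1g* (5.06) and *Oas2* (5.03) lie farthest right, and *Akap7* (0.12) is the only open point among the genes drawn.

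Ratios of counts were taken for 3 pairs of neighbouring members, and other neighbouring pairs were not taken. The member with the larger fold change was put on top, so the shared direction of the ratios restates the fold changes above. The ratio of *Oas1g* to *Oas1a* counts was 0.154, 0.0771 and 0.138 in Scr and 0.339, 0.364 and 0.286 after Yme1l siRNA, and it carries the same doubt about shared reads. *Oasl1* counts were 0.0235, 0.0278 and 0.0372 of those of *Oasl2* in Scr and 0.0604, 0.0638 and 0.0577 after Yme1l siRNA. For *Oas2* over *Oas3* the ratio was 2.39, 1.87 and 1.26 in Scr and 3.10, 3.14 and 2.90 after Yme1l siRNA. Each ratio was higher in every knockdown library than in any Scr library, by 1.47, 1.06 and 0.78 on the log2 scale. These are ratios within a library, so library scaling does not enter. Each gave an exact permutation p of 0.1 (two-sided; adjusted over the 3 ratios 0.1), the smallest that 3 against 3 libraries allow, so this test could not pass 0.05 and the ratios are a description.

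Per kilobase of annotated exon, the order of levels also changed. In Scr the means were 5.95 ± 3.63 CPM per kb for *Oasl2*, 5.17 ± 2.36 for *Oas1a*, 2.67 ± 1.28 for *Oas1b*, 1.26 ± 0.838 for *Oas2*, 1.22 ± 0.140 for *Oas1c*, 0.518 ± 0.347 for *Oas1g*, 0.399 ± 0.159 for *Oas3* and 0.390 ± 0.166 for *Oasl1* (SD, n = 3). The pairs *Oasl2* and *Oas1a*, *Oas2* and *Oas1c*, and neighbours among the last 3 genes differed by less than the SD of either gene. After Yme1l siRNA the means were 64.3 ± 25.0 CPM per kb for *Oas1a*, 53.9 ± 21.5 for *Oasl2*, 41.4 ± 17.7 for *Oas2*, 17.6 ± 8.30 for *Oas1g*, 13.0 ± 4.85 for *Oas1b*, 8.45 ± 3.39 for *Oas3*, 8.06 ± 3.50 for *Oasl1* and 1.95 ± 0.234 for *Oas1c*. By group mean *Oas1c* thus went from 5 in the order to 8, *Oas1b* from 3 to 5, and *Oas1g* from 6 to 4. The Scr order was not the same in each library. *Oas1a* lay above *Oasl2* in Scr replicate 3 (2.73 and 2.49 CPM per kb), and *Oas1c* above *Oas2* in Scr replicates 2 and 3. *Oas1g* was the lowest member in Scr replicate 2. Neighbours among *Oas1a*, *Oasl2* and *Oas2*, and among *Oas1g*, *Oas1b*, *Oas3* and *Oasl1*, again differed by less than the larger SD of the pair. Within each knockdown library the order was nevertheless the same, except that *Oasl1* lay above *Oas3* in replicate 2 (10.7 and 10.6 CPM per kb).

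The summed OAS level was 26.4, 17.0 and 9.27 CPM per kb in Scr and 244, 269 and 112 after Yme1l siRNA. *Oas2* made up 8.20, 6.44 and 5.57% of this sum in Scr and 20.6, 19.6 and 18.7% after Yme1l siRNA. *Oas1b* moved the other way, from 15.2, 14.9 and 15.8% to 5.89, 6.31 and 6.75%. The share of *Oas1c* was 3.99, 7.72 and 13.8% in Scr and 0.825, 0.796 and 1.5% after Yme1l siRNA. *Oas1a* kept nearly its share, 29.7 ± 1.70% in Scr and 31.0 ± 0.842% after Yme1l siRNA (SD, n = 3), and its groups overlapped. Shares of 1 sum are not independent of each other, and they depend on the length used. In the FPKM of the authors, which are 1 value per group, *Oasl2* held 59.6% of the sum in Scr and 47.9% after Yme1l siRNA and came first in both groups. There *Oas1a* held 15.6 and 17.8%, well below its share by annotated length. The shares of *Oas2* (4.14 and 12.6%), *Oas1b* (9.95 and 4.72%) and *Oas1c* (3.97 and 0.586%) moved in the directions given above.

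**Figure D3:**
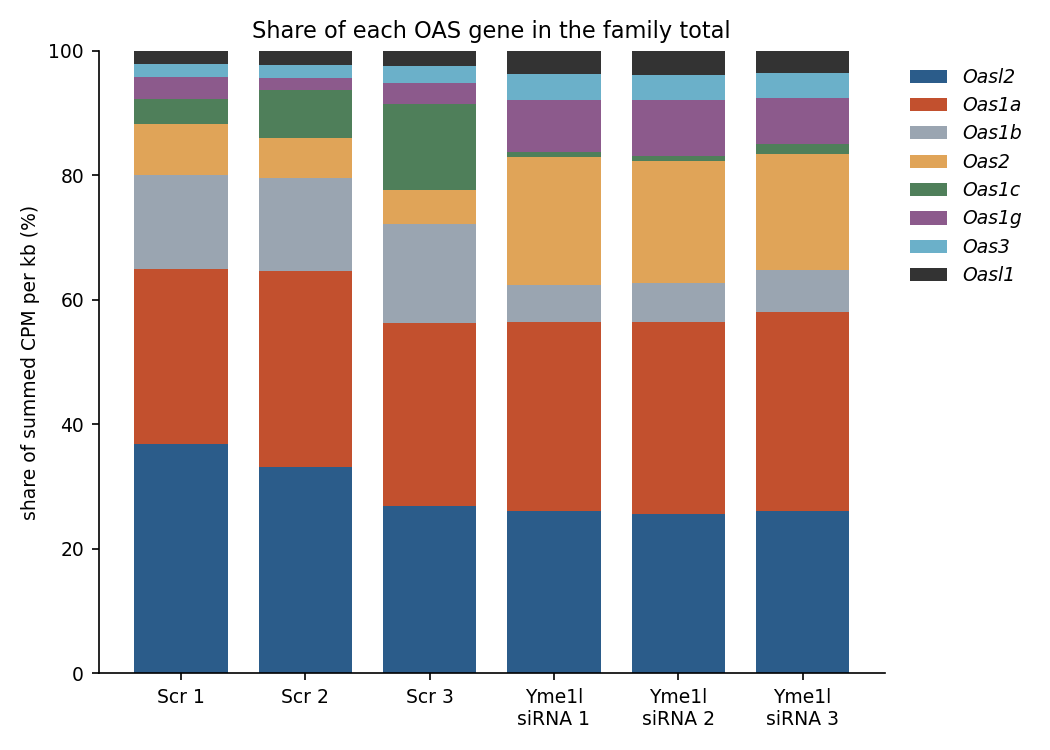
Share of each OAS gene in the summed CPM per kb of the 8 genes, for each library. The share of *Oas2* lies between 18.7 and 20.6% after Yme1l siRNA, and between 5.57 and 8.20% in Scr.

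Within each group the members other than *Oas1c* varied together. For these 7, the highest Scr library of a member was 2.21 to 4.20-fold above the lowest and the highest knockdown library 2.23 to 2.93-fold, where the median over the 11544 loci whose mean log2 CPM reached 1 was 1.13-fold and 1.16-fold. For 7 of the 8 members Scr replicate 1 was highest and Scr replicate 3 lowest, and for 8 of the 8 Yme1l siRNA replicate 2 was highest and replicate 3 lowest. Both orders were seen together in 7.08% of all loci tested. In each group replicate 3 also stood farthest from the other libraries over the loci compared. For *Oas1c* the spread was 1.24-fold in Scr and 1.27-fold after Yme1l siRNA. The correlation of a member's deviations from its group means with those of the other members was between 0.903 and 1.00 for the 7 and 0.0827 for *Oas1c*, over 6 libraries.

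**Figure D4:**
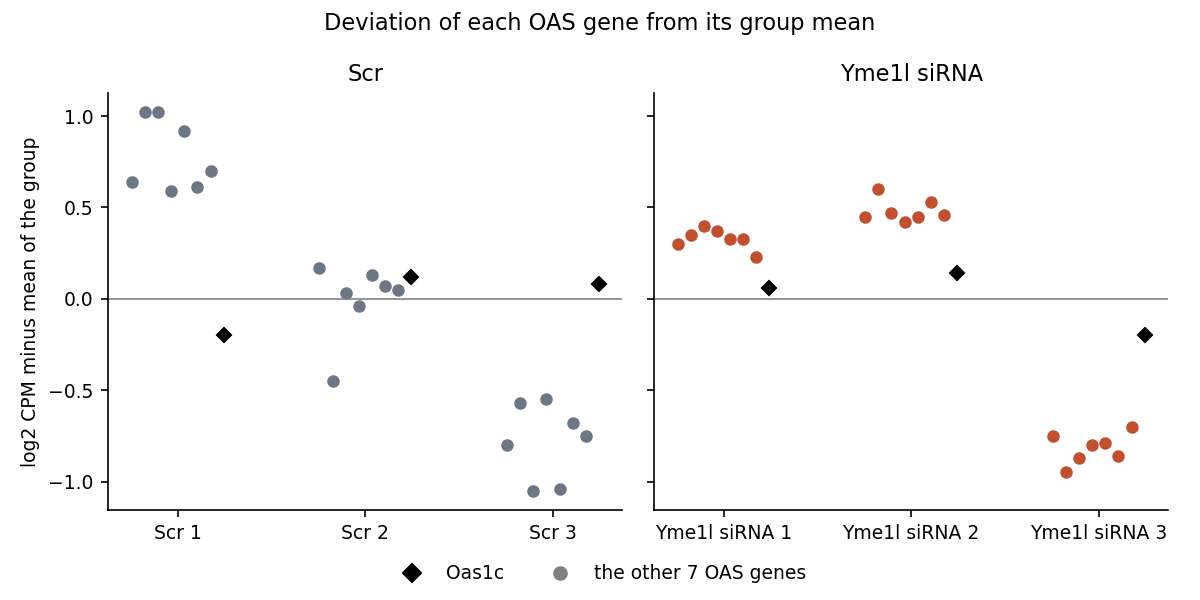
Deviation of each OAS gene from the mean of its group on the log2 CPM scale, 1 point per gene and library. The 7 genes other than *Oas1c* lie at 0.59 or above in Scr replicate 1, at -0.55 or below in Scr replicate 3 and at -0.70 or below in Yme1l siRNA replicate 3, while *Oas1c* stays between -0.20 and 0.14.

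The level of *Yme1l1* was nearly constant over the Scr libraries, 171 ± 0.425 CPM (SD, n = 3), although the summed OAS level there ranged from 9.27 to 26.4 CPM per kb. Among the knockdown libraries, replicate 3 had the highest *Yme1l1* level (45 CPM) and the lowest summed OAS level (112 CPM per kb), and replicate 2 the lowest *Yme1l1* level (23.4 CPM) and the highest summed OAS level (269 CPM per kb). With 3 libraries in a group this order is a description. Scr replicate 3 also had the lowest summed OAS level of its group, with *Yme1l1* at 171 CPM.

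**Figure D5:**
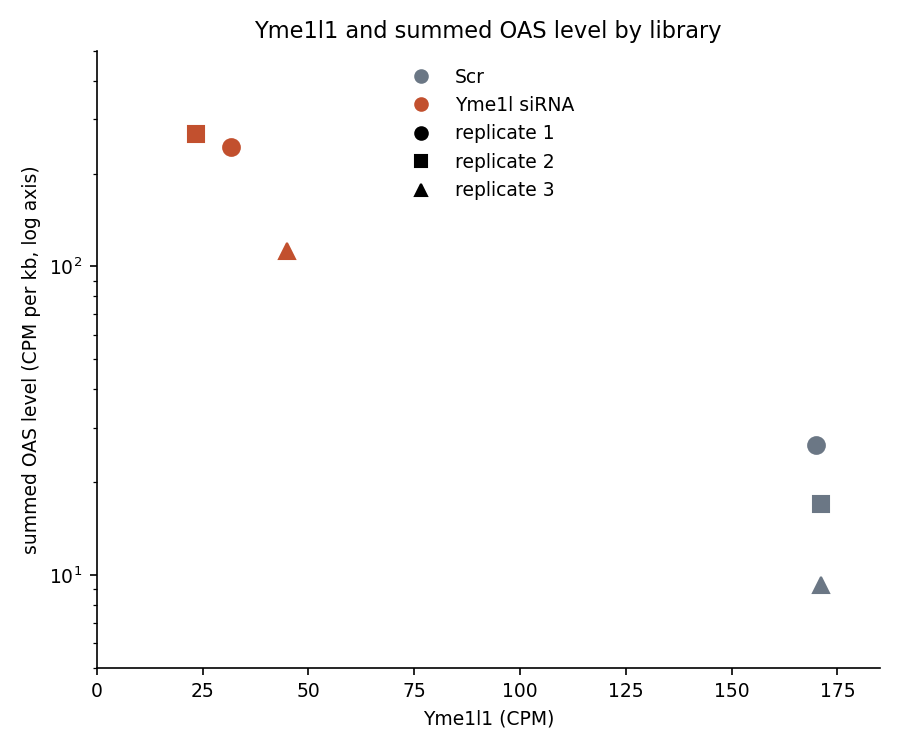
*Yme1l1* level in CPM against the summed level of the 8 OAS genes in CPM per kb on a log axis, 1 point per library. The Scr libraries share 1 *Yme1l1* level, near 171 CPM, and spread from 9.27 to 26.4 on the other axis.

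Of 3 genes that act downstream of 2-5A synthesis, 2 were higher and none was lower. *Abce1*, which recycles ribosomes, stood at 163, 175 and 166 CPM in Scr and at 257, 233 and 269 CPM after Yme1l siRNA. *Pde12*, a phosphodiesterase that degrades 2-5A, stood at 23.7, 23.8 and 23.7 CPM and at 31.7, 29.7 and 34.5 CPM. In both genes Yme1l siRNA replicate 3, the lowest knockdown library for the OAS members, was the highest. Their log2 fold changes were 0.59 (standard error 0.08) and 0.43 (standard error 0.08), with edgeR quasi-likelihood, Benjamini-Hochberg adjusted p-values of 0.000279 and 0.00164. *Pde12* shares 527 exonic bases with *Arf4* on the other strand. *Akap7*, whose product also degrades 2-5A, had overlapping groups and a log2 fold change of 0.12 (standard error 0.12, edgeR quasi-likelihood, Benjamini-Hochberg adjusted p = 0.421).

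Over the list of 28 pathway genes outside the members, 23 were tested, 18 were higher and 0 lower, with a median log2 fold change of 1.19 beside 0.01 for all loci tested. At an adjusted p under 0.05 DESeq2 and limma-voom also called 0 lower, and at an unadjusted p under 0.05, counted in edgeR only, 1 was lower, *Irf3*. Of the 8 sensors and effectors of double-stranded RNA 7 were higher. *Cgas* (listed as *Mb21d1*), a DNA sensor with the same nucleotidyltransferase fold as the OAS proteins, stood at 17.8, 19.2 and 20.9 CPM in Scr and at 56.2, 58.8 and 47.4 CPM after Yme1l siRNA. Its spread within groups was small beside that of the OAS members other than *Oas1c*, 1.17-fold and 1.24-fold, and its log2 fold change was 1.49 (standard error 0.10, edgeR quasi-likelihood, Benjamini-Hochberg adjusted p = 1.46e-05). *Ifih1*, which encodes MDA5, had a mean of 30.5 ± 7.31 CPM in Scr and 98.0 ± 32.2 CPM after Yme1l siRNA, and *Ddx58*, which encodes RIG-I, 97.7 ± 23.0 and 234 ± 52.9 CPM (SD, n = 3 each). *Eif2ak2*, which encodes the kinase PKR, was at 152 ± 24.1 and 292 ± 52.6 CPM. The log2 fold changes of these 3 were 1.68, 1.26 and 0.94. Among the 8 sensors and effectors the largest log2 fold changes were those of *Dhx58*, 2.46, which is above that of *Oas1b*, and *Zbp1*, 2.14. *Mavs*, the adaptor of RIG-I and MDA5, was the sensor gene that did not pass (log2 fold change -0.21, edgeR quasi-likelihood, Benjamini-Hochberg adjusted p = 0.166).

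*Ifnb1*, the interferon of fibroblasts, had 3, 1 and 0 counts in Scr and 37, 60 and 11 after Yme1l siRNA. In the knockdown libraries its order was that of the 7 OAS members. The Scr counts also fell in the order of those members, but they are too few to set an order beyond counting error. The ratio of summed counts was 25.3, with a 95% interval of 9.58 to 94.4 for counting error only, and the adjusted p was 0.00233 (edgeR quasi-likelihood, Benjamini-Hochberg). Unlike the OAS members, *Ifnb1* passed the filter on low counts through the knockdown group alone. Of the 4 genes of interferon and its receptor, 3 were tested and 2 were higher, *Ifnb1* and *Ifnar2*, the latter at a locus joined with *Gm21970* and *Il10rb*, and *Ifna4* had 0 counts in each Scr library and 4, 6 and 1 after Yme1l siRNA.

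Among 5 transcription factors of this response, 4 were higher. *Irf7* stood at 26.8, 19.3 and 7.09 CPM in Scr and at 162, 190 and 68.1 CPM after Yme1l siRNA, the same order of libraries as the 7 OAS members. Its log2 fold change was 2.98 (standard error 0.50, edgeR quasi-likelihood, Benjamini-Hochberg adjusted p = 0.00114). *Stat2* rose by 1.64 and *Irf9* by 1.19 on the log2 scale, the latter at a locus that joins it with *Rnf31*. Of 3 further genes of the pathway list 2 were higher, and the third, *Socs1*, had a log2 fold change of 0.10. The higher genes were *Usp18* (log2 fold change 2.99, standard error 0.40) and *Isg15* (1.83, standard error 0.47). For these 2, the edgeR quasi-likelihood, Benjamini-Hochberg adjusted p-values were 0.000334 and 0.00963. The highest Scr library of *Isg15* was 4.04-fold above the lowest, close to the 4.20-fold of *Oas2*.

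The genes whose log2 CPM over the 6 libraries was most like the mean profile of the members were *Unkl*, *Ddx60*, *Cdh2*, *Csf1* and *Fzd5*, with correlations of 0.998 to 0.999. Of these *Ddx60* changed about as much as the members (log2 fold change 4.55), and the other 4 changed by 0.53 to 1.25. With 2 separated groups such a value mostly reflects the difference between groups, and 17.8% of the 11185 loci compared reached 0.9. By deviations from group means the 5 most like them were *Gaa*, *Iigp1*, *Gm15267*, *Wbp1l* and *Phf11d*, with correlations of 0.999 or more, and 6.22% of the loci reached 0.9. *Iigp1* and *Phf11d* had log2 fold changes of 2.94 and 2.56, whereas the 3 others had negative ones, -0.59 for *Gaa*, -0.23 for *Wbp1l* and -0.14 for *Gm15267*, the first 2 of them called lower at an adjusted p under 0.05.

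Markers were measured beside these results. Fibroblast markers summed to 32200, 28600 and 25100 CPM in Scr and 17500, 17300 and 14500 CPM after Yme1l siRNA, with *Col1a1* most abundant, 6 of the 7 tested lower (*S100a4* at a locus joined with *Gm42674* and *S100a3*), and *Thy1* at 0 or 1 counts in every library. The part of this fall in the OAS result was not tested. Of 6 blood cell markers, *Adgre1* and *Cd3e* had 0 counts in all libraries, *Ptprc* and *Itgam* at most 3, and none of the 2 tested passed at an adjusted or unadjusted p in edgeR. The blood list summed to 72.8, 70.0 and 83.0 CPM in Scr and 74.7, 88.6 and 55.5 CPM after Yme1l siRNA, nearly all of it *Cd68* and *Cd14*. Of 4 epithelial markers 1 was tested and higher (*Krt8*), and of 3 endothelial markers 2 were tested and 1 was higher (*Kdr*). *Krt8* had 1 count in each Scr library and *Kdr* had 3, 9 and 7, so both passed the filter on low counts through the knockdown group. The part of these markers in the OAS result was not tested. Epithelial markers summed to at most 0.166 CPM in Scr and 1.33 CPM after Yme1l siRNA, and endothelial markers to at most 0.721 and 1.92 CPM, and *Krt8* and *Kdr* were the most abundant after knockdown.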

How the data were processed

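The authors deposited raw counts per locus, without normalization, for 6 poly(A), strand-specific libraries; per the labels and methods, reads were mapped to mm10 with HiSat 2.0.4 and assembled with StringTie 1.3.3, and the counting program, its use of strand and its handling of reads that match several places are not given in the sources used here. The second table the authors deposited holds FPKM per group from Cuffdiff 2.2.1, used for levels per length only; its fold change, test statistic, p, q and significance columns were not used. Counts were fitted with edgeR 4.0.16 (R 4.3.3; TMM, filterByExpr with a minimum count of 10, quasi-likelihood test) over all 14499 loci that passed, without covariates, with Benjamini-Hochberg adjustment over all of them and a threshold of 0.05. The script was tested on simulated data. Replicate pairs differed by more than sampling noise. Chi-square per degree of freedom was 10.4 in Scr and 28.3 after Yme1l siRNA for replicates 1 and 2. Pairs with replicate 3 gave 75.5 and 59.8 in Scr and 49.0 and 72.2 after Yme1l siRNA. Exon lengths, overlaps and transcripts came from GENCODE (GRCm38), identities from blastn 2.17.0, and promoters from RefSeq (GRCm38.p6). Alternatives were RLE, upper-quartile and raw-total scaling, DESeq2 1.42.0, limma-voom 3.58.1, other filters and thresholds, a replicate block, and leaving out each library. All 8 members were named in full, with 13 genes of the pathway list and *Yme1l1*, and the 5 genes most like the members by each of 2 correlations; *Dhx58*, *Zbp1*, *Ifna4*, *Ifnar2*, *Mavs*, *Irf3*, *Socs1* and the non-member OAS genes are further entries of the list. Members and lists were chosen with earlier results of these data known, and some genes of the lists are not reported here and were left out of them. Depth was 37260605 to 45205207 counts.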

Additional observations from a re-analysis of the deposited data

How the results depend on the processing

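All 8 OAS members were higher, and 0 lower, under each of the 15 other settings, which gave 120 values for single members with the same direction and side of the threshold. The median log2 fold change of the members ranged from 3.70 to 4.36 when 1 library was left out, the ends being the fits that drop replicate 3 and replicate 1 of Scr. These 2 libraries also gave the lowest and highest value of each member other than *Oas1c*, for example 4.77 and 5.78 for *Oas1g* and 4.65 and 5.69 for *Oas2*. They moved *Ifnb1* most, from 4.53 to 3.96 and 5.71, and the fit without Yme1l siRNA replicate 2 also gave 3.96. Leaving out 1 library moved *Oas1c* between 0.58 and 0.77 and *Yme1l1* between -2.64 and -2.15. The 14 other genes followed gave 209 values, again without a change of call; *Ifnb1* gave none with a mean of at least 50 counts. The pathway list had 17 to 21 genes higher.

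With the replicate block 8 members and 18 pathway genes were higher and 2 pathway genes lower, where the fit without it had 0; 4227 loci were higher and 4460 lower, against 4123 and 4288. Deviations of libraries with the same number correlated at 0.04, 0.12 and 0.19. Not all of these are over 0.1, the limit set for pairs, so the numbers were not taken as pairs, although 5 of 6 libraries correlated best with their own number, a hint towards pairing from the data and not from the design.

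With raw library totals the median log2 fold change of all loci moved from 0.01 to 0.07, and more loci were higher (4589) than lower (3696); upper-quartile factors also gave more higher (4258) than lower (4115). Levels per length were within 1 SD of the FPKM of the authors for 7 of 16 values; the cause of the difference in the other 9 was not tested. Depth limits *Ifnb1* and the non-member OAS genes, at 0 to 4 counts in Scr libraries.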
